A study of Homo sapiens with 6 samples.

Results

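The genes described here are 10 members of the NRF2 antioxidant pathway, listed by name, with no threshold on a measured value, at a time when earlier results of these data were known: NFE2L2, KEAP1, GCLC, GCLM, SLC7A11, TXN, TXNRD1, SRXN1, NQO1 and OSGIN1. They are 10 of the 52992 genes to which the deposited transcripts could be matched, and all 10 passed the filter that left 11909 measured genes, a mean of at least 50 counts over the libraries. The cells came from J82, a human bladder cancer line in long use, in 2 derived forms: one in which doxycycline turns on ZFP36L1 (tet-ZFP36L1) and its control (tet-control). The ZFP36L1 protein attaches to AU-rich elements of mRNAs and speeds their decay. Each line was sampled without doxycycline (0 h) and after 6 and 24 h with doxycycline at 1 µg/mL, so that both lines received the drug. There was 1 library in each of the 6 groups. Whether a line is 1 clone or a pool is not stated in the labels, and no group without doxycycline was sampled at 6 or 24 h, so drug and time in culture cannot be told apart.

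NRF2, encoded by NFE2L2, is a transcription factor that pairs with small MAF proteins on antioxidant response elements and switches on genes for glutathione synthesis, the thioredoxin system and quinone reduction. In unstressed cells KEAP1 holds NRF2 and hands it to a CUL3 ubiquitin ligase for destruction, and oxidants release it, so that NRF2 activity is mostly set at the protein level. NFE2L2 is recurrently mutated in bladder cancer. None of the measurements here is of a protein.

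With 1 library per group there was no replicate check, nothing was tested and the text holds no p-value. Levels are TMM-scaled counts per 1000000 counts (CPM), changes are differences of log2(CPM + 0.5), and the induction difference is the change from 0 h in tet-ZFP36L1 minus the change from 0 h in tet-control. A gene is called lower or higher past 1.5-fold, 0.585 on the log2 scale. Bracketed ranges are 95% intervals of counting error only and leave out culture-to-culture variation. Total estimated counts were 20739025 to 21380480 per library. ZFP36L1 itself stood at 206 to 234 CPM in the tet-control libraries and at 220.0 CPM in tet-ZFP36L1 at 0 h, and at 3130.0 CPM at both 6 and 24 h. One library differed from the rest, that of tet-ZFP36L1 at 24 h, with 15695 genes at 10 or more counts against 14515 to 14956 in the others and a TMM factor of 1.11 against 0.941 to 1.01. In the induction difference at 24 h, the decile of genes with the highest expression had a median of -0.25 and the decile with the lowest 0.28. The lines also differed before doxycycline. Mesenchymal markers summed to 672 to 780 TPM in tet-control and to 3722, 4025 and 1486 TPM at 0, 6 and 24 h in tet-ZFP36L1, with 6 of 7 measured and TWIST1 at 0 in every library. Urothelial and epithelial markers summed to 672 to 837 TPM in tet-control and 1260 to 1631 TPM in tet-ZFP36L1, and 5 of 15 were measured, among them KRT8 and KRT18. The higher sums did not hold for every marker. At each of 0, 6 and 24 h, 1 of these 5 was called lower in tet-ZFP36L1 than in tet-control. At the same times 2, 3 and 2 were called higher. The defining urothelial markers UPK2 and UPK3A were at 0 in all 6 libraries. Markers of other cell types summed to 5.03 to 36.1 TPM, and HBB was at 0. The part of these differences in the members' values was not tested.

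NRF2 acts through a short promoter element, and the promoters printed are those of GCLM and TXNRD1, the members called lower at both times in the comparison given further on. RefSeq promoter windows (GRCh38.p14, 300 bases, a gene's start included) were held for 9 of the 10 members, all but SLC7A11. The core searched was TGACNNNGC on either strand, which reads GCNNNGTCA on the other. It occurred in 3 of these 9 members (GCLM, TXNRD1 and KEAP1), against 19.5% of 9092 measured genes with any such window and 13.4% of all 35116 windows. The window of TXN, which had the largest difference at 24 h, held no match. Sequence farther from the start than these windows reach was not searched. A window without a match therefore does not show that a gene lacks the element. The 150 bases before the start site are printed for GCLM (chr1:93909431-93909580, minus strand) and for the second start of TXNRD1 (chr12:104286882-104287031, plus strand), 5′ to 3′ along the gene, with the core in capitals.

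GCLM: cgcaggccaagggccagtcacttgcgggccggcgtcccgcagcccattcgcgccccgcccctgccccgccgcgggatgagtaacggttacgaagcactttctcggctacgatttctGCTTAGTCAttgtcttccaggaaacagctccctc

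TXNRD1: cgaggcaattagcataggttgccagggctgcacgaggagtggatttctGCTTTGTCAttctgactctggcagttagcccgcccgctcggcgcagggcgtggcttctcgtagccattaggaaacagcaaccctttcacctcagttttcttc

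In both, the core lies on the strand opposite to the gene, beginning at position -34 in GCLM and -102 in TXNRD1, counted back from the start site. The TXNRD1 transcripts with the most counts, TXNRD1-203 and TXNRD1-202, are annotated from base 104286682. For these the printed stretch lies after the annotated start. The first TXNRD1 window and the second KEAP1 window held 2 matches each. A match of these letters describes the sequence and says nothing of binding.

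The letters read by ZFP36 proteins were searched in 3′ UTRs, because the inducible protein acts there. For each member the search took the protein-coding transcript of highest mean TPM among those with an annotated stop codon. The heptamer TATTTAT (written as DNA) occurred 5 times in SLC7A11, 2 times in GCLM and 2 times in TXNRD1 at overlapping positions. It occurred 1 time each in NFE2L2 and SRXN1. KEAP1, GCLC, TXN and OSGIN1 had none, and NQO1, whose transcript picked by this rule has a short annotated 3′ UTR, was not searched. The TXNRD1 transcript searched is 3832 bases long in GENCODE 29 but 3488 bases in the deposited tables, and both of its sites lie near the 3′ end, so the version that was quantified may lack them. The other 8 transcripts had equal lengths in both. With TXNRD1 included, this is 5 of 9 members, against 29.1% of 10549 genes with an annotated 3′ UTR. The members' UTRs were longer, with a median of 1415 bases against 868, and a longer UTR has more places for a match. The 30 bases around 1 site each are printed for the 3 members that were called lower at 24 h and hold the heptamer, and for the NRF2 gene, with the heptamer in capitals.

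GCLM: aaaatgtgtaaTATTTATtccccattaata

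TXNRD1: atattcagtttTATTTATttatttttaatt

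SLC7A11: agactttaattTATTTATttttgatttgaa

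NFE2L2: ctacaaaaactTATTTATactgttcttatg

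These begin at bases 893 of 3785, 1574 of 1884, 2399 of 7859 and 260 of 477 of the respective 3′ UTRs. TXN had a 3′ UTR of 346 bases with 3 copies of the shorter word ATTTA and no heptamer.

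The first question was how the pathway as a whole stood after ZFP36L1 induction. At 24 h, 5 of the 10 members were called lower in the induction difference: TXN, GCLM, SLC7A11, TXNRD1 and NQO1, which is 5 of 10 against 17.4% of measured genes. No member was called higher, against 13.9%. At 6 h, GCLM and TXNRD1 were called lower, 2 of 10 against 14.3%, and none was called higher, against 7.02%. The median of the 10 members was -0.39 at 6 h and -0.54 at 24 h, beside medians of -0.01 and -0.02 over all measured genes. The count of 5 at 24 h became 3 with the deposited TPM, against 13.4% of measured genes, and 3 with a 2-fold threshold, against 6.5%. NQO1 alone left the count with CPM by library total, upper-quartile factors, centring within expression deciles or protein-coding transcripts alone. With that centring the members' median was -0.41 at 6 h and -0.33 at 24 h. In these bulk cultures, fewer cells of a type and less RNA per cell cannot be told apart.

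**Figure D1:**
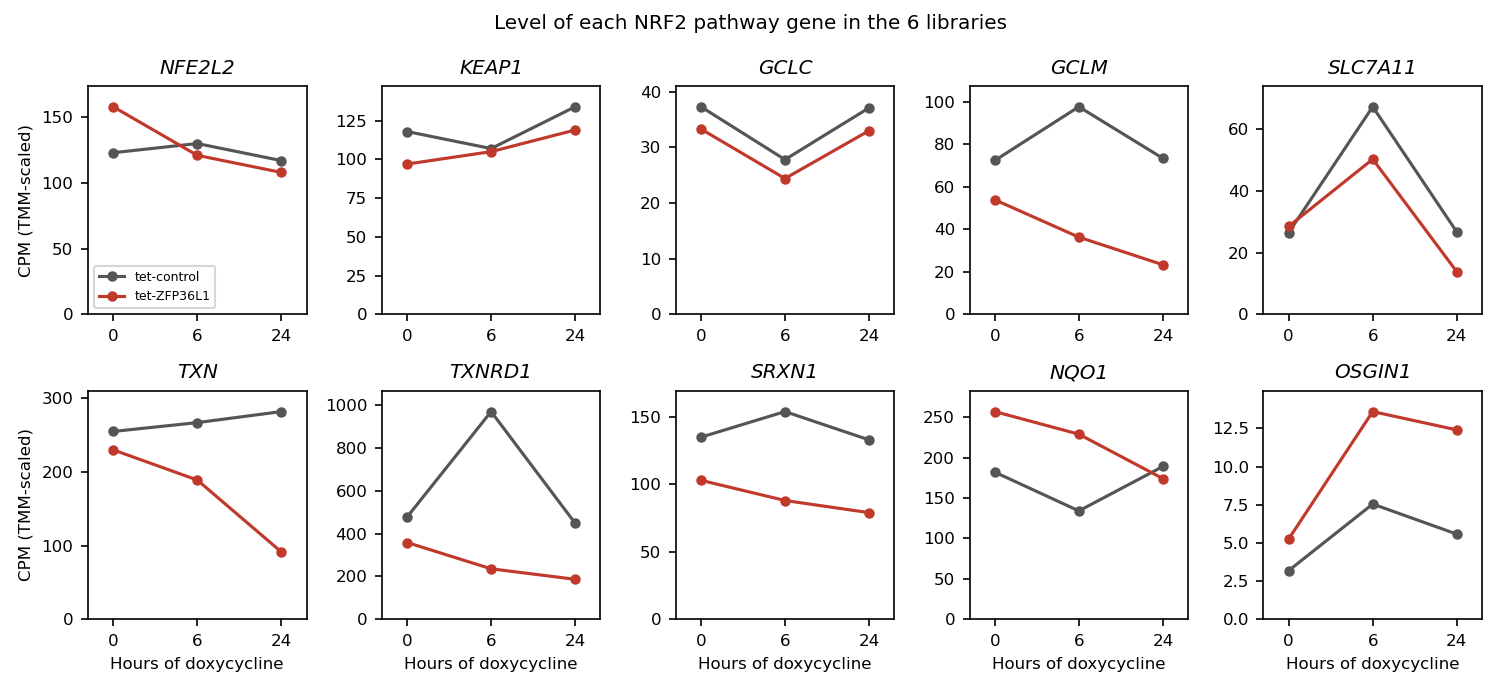
Level of each of the 10 genes in CPM (TMM-scaled, linear axes from 0, a different maximum in each panel) against hours of doxycycline, in tet-control (grey) and tet-ZFP36L1 (red), with 1 library per point. In tet-control the 24 h point lies near the 0 h point for all genes but OSGIN1, while GCLM, TXN, TXNRD1, SRXN1, NFE2L2 and NQO1 step down at each time in tet-ZFP36L1.

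NFE2L2, the gene of NRF2 itself (ENSG00000116044; GRCh38 chromosome 2, 177227595 to 177392697, minus strand), measured 123, 130.0 and 117 CPM in the tet-control libraries, in the order 0, 6 and 24 h that is kept from here on. In tet-ZFP36L1 it measured 158, 121 and 108 CPM. The tet-ZFP36L1 line was thus the higher of the 2 before doxycycline, and the lines were close after it. Its own change in tet-ZFP36L1 was -0.39 at 6 h and -0.55 at 24 h, short of 1.5-fold, and the induction difference was -0.47 at both times (-0.58 to -0.36 at each). Because it began 0.37 above tet-control, its difference from tet-control under doxycycline was only -0.11 at each time, and at 24 h this small difference took the other sign in 4 of 8 alternative settings.

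KEAP1, the adaptor that holds NRF2 (ENSG00000079999; chromosome 19, 10486120 to 10503741, minus strand), was at 118, 107 and 134 CPM in tet-control and 97.0, 105 and 119 CPM in tet-ZFP36L1. Both lines were highest at 24 h. Its induction difference was 0.25 (0.13 to 0.37) at 6 h and 0.10 (-0.01 to 0.22) at 24 h. Per length, the ratio of NFE2L2 to KEAP1 in deposited TPM was 0.856, 1.14 and 0.757 in tet-control. For tet-ZFP36L1 it was 1.43, 1.04 and 0.758. By these summed TPM the 2 lines had nearly the same ratio at 24 h, reached from different starting points. The sums include noncoding transcripts. At 24 h KEAP1-205, a retained intron of 451 bases, held 25.1 TPM in tet-control and 37.0 TPM in tet-ZFP36L1. The ratio is thus not one of coding mRNAs, which was not calculated.

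Glutathione is made from cysteine, and 3 members serve its synthesis. SLC7A11 is the cystine importer subunit, GCLC the catalytic and GCLM the modifier subunit of glutamate-cysteine ligase, the rate-limiting enzyme. GCLM (ENSG00000023909; chromosome 1, 93885205 to 93909456, minus strand) came to 72.4, 97.7 and 73.4 CPM in tet-control and 53.9, 36.3 and 23.3 CPM in tet-ZFP36L1. All 3 tet-ZFP36L1 libraries lay below all 3 tet-control libraries, and the line's level stepped down at each time. GCLM had an induction difference of -0.99 (-1.16 to -0.83) at 6 h, to which the higher tet-control level at 6 h (0.43) contributed, and -1.21 (-1.39 to -1.03) at 24 h, when tet-control was back at its 0 h level (0.02).

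GCLC, the partner subunit (ENSG00000001084; chromosome 6, 53497341 to 53616970, minus strand), had a similar course in both lines. It measured 37.3, 27.8 and 37.1 CPM in tet-control and 33.3, 24.4 and 33.0 CPM in tet-ZFP36L1. Its 6 h dip was nearly equal in the lines, at -0.42 for tet-control and -0.45 for tet-ZFP36L1, and the induction difference was -0.03 (-0.26 to 0.20) at 6 h and -0.01 (-0.21 to 0.20) at 24 h. The 2 subunits of 1 enzyme thus took different courses. Per length, GCLM was at 1.27, 2.47 and 1.58 times the TPM of GCLC in tet-control and at 1.23, 1.27 and 0.499 times in tet-ZFP36L1. Only the tet-ZFP36L1 library at 24 h, of the 6, had a lower summed TPM for the modifier than for the catalytic subunit. The sums include short noncoding transcripts, so the ratios are not those of coding mRNAs. GCLM-203, of 625 bases, held 19.8 of the 37.3 TPM of GCLM in tet-control at 0 h. The main coding transcripts, GCLM-201 and GCLC-201, were at 6.19 and 10.4 TPM in tet-ZFP36L1 at 24 h. In every other library GCLM-201 was the higher.

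SLC7A11 (ENSG00000151012; chromosome 4, 138164097 to 138242349, minus strand) came to 26.5, 67.3 and 26.7 CPM in tet-control and 28.5, 50.3 and 13.8 CPM in tet-ZFP36L1. In both lines the 6 h library was the highest of the line, by 1.33 (1.19 to 1.47) in tet-control and 0.81 (0.67 to 0.96) in tet-ZFP36L1. The lines parted at 24 h, when tet-control was back at its 0 h level (0.01) and tet-ZFP36L1 was 1.02 below its own (-1.02, interval -1.22 to -0.83). SLC7A11 had an induction difference of -0.52 (-0.72 to -0.31) at 6 h and -1.04 (-1.30 to -0.78) at 24 h, but on the deposited TPM, with levels of 3.90 and 2.43 TPM at 0 and 24 h in tet-ZFP36L1, the latter was -0.51 and short of 1.5-fold. SLC3A2, the chain that carries SLC7A11 to the membrane, measured 134, 225 and 130.0 CPM in tet-control and 115, 197 and 106 CPM in tet-ZFP36L1. It showed the 6 h peak in both lines (0.75 and 0.78) without the later drop, with an induction difference of -0.06 at 24 h.

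The thioredoxin system is the other main route of reducing power, in which TXNRD1, a selenoprotein, passes electrons from NADPH to thioredoxin (TXN). TXNRD1 (ENSG00000198431; chromosome 12, 104215779 to 104350305, plus strand) was at 477, 970.0 and 448 CPM in tet-control. In tet-ZFP36L1 it came to 358, 235 and 186 CPM. At 6 h the lines moved in opposite directions, with a change of 1.02 (0.99 to 1.06) in tet-control and -0.61 (-0.66 to -0.56) in tet-ZFP36L1. The latter was just short of 1.5-fold, at -0.57, with upper-quartile scaling or protein-coding transcripts alone. These changes gave the largest induction difference of any member at 6 h, -1.63 (-1.70 to -1.57), with 1.0% of measured genes lower still, and a level 4.13-fold below tet-control at that time. At 24 h the difference was -0.86 (-0.92 to -0.79), with tet-control near its start (-0.09) and tet-ZFP36L1 at -0.95.

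TXN (ENSG00000136810; chromosome 9, 110243811 to 110256640, minus strand) measured 255, 267 and 282 CPM in tet-control and 230.0, 189 and 91.3 CPM in tet-ZFP36L1. The tet-control libraries were close to one another, and the low value was that of tet-ZFP36L1 at 24 h. Its induction difference was -0.35 (-0.44 to -0.27) at 6 h and -1.47 (-1.56 to -1.38) at 24 h, the largest of any member at 24 h. Genes of the same expression decile had a median of -0.25 in that contrast, and TXN lay 1.22 below it (-1.22). Per length TXN was the most abundant member in 5 of the 6 libraries, at 344 to 490.0 TPM, and at 24 h in tet-ZFP36L1, at 181 TPM, it came after NQO1 at 249 TPM.

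SRXN1, sulfiredoxin, repairs over-oxidised peroxiredoxins (ENSG00000271303; chromosome 20, 646615 to 653370, minus strand). It was at 135, 154 and 133 CPM in tet-control and at 103, 88.0 and 79.0 CPM in tet-ZFP36L1. All 3 tet-ZFP36L1 libraries were lower than all 3 tet-control libraries, but part of this preceded doxycycline (-0.39 at 0 h). For SRXN1 the induction difference was -0.42 (-0.54 to -0.30) at 6 h and -0.36 (-0.48 to -0.24) at 24 h, short of 1.5-fold. These values are uncertain, since 84.9% of the 31-base words of SRXN1 also occur in other genes, mainly AL121758.1, an overlapping gene on the same strand that held 0 to 73 counts.

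**Figure D2:**
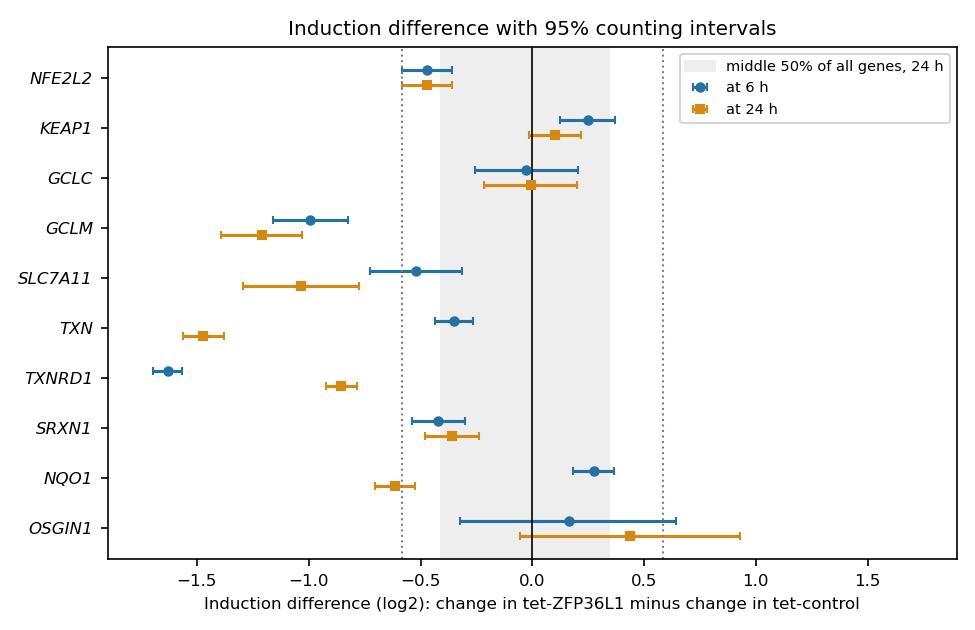
Induction difference (log2, change in tet-ZFP36L1 minus change in tet-control) for each gene at 6 h (blue circles) and 24 h (orange squares), with bars for 95% counting intervals, dotted lines at 1.5-fold and a grey band for the middle 50% of all measured genes at 24 h. TXNRD1 is lowest at 6 h (-1.63), TXN at 24 h (-1.47), and GCLC sits near 0 at both times.

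Detoxification and growth control are represented by NQO1 and OSGIN1. NQO1, a quinone reductase widely used as a readout of NRF2 (ENSG00000181019; chromosome 16, 69706996 to 69726951, minus strand), came to 182, 134 and 189 CPM in tet-control and 257, 229 and 174 CPM in tet-ZFP36L1. It was higher in tet-ZFP36L1 at 0 h (0.50, short of 1.5-fold) and at 6 h (0.77), and at 24 h the lines were close (-0.12, above 0 in 3 of 8 alternative settings). The induction difference was 0.27 (0.18 to 0.37) at 6 h and -0.61 (-0.70 to -0.52) at 24 h. This last call was just past 1.5-fold, and 5 of the alternative settings put it short of that, at -0.57 to -0.37. NQO1 was thus the 1 member whose induction difference lay above 0 at 6 h and past 1.5-fold below it at 24 h.

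OSGIN1, an oxidative stress-induced growth inhibitor (ENSG00000140961; chromosome 16, 83948282 to 83966332, plus strand), was the least counted member, with 64 to 270 counts per library. It measured 3.18, 7.54 and 5.57 CPM in tet-control and 5.25, 13.6 and 12.4 CPM in tet-ZFP36L1. In each line both doxycycline libraries were higher than the 0 h library, with changes of 1.13 and 0.72 in tet-control and 1.29 and 1.16 in tet-ZFP36L1. The induction difference was 0.16 (-0.32 to 0.65) at 6 h and 0.44 (-0.06 to 0.93) at 24 h, and both counting intervals included 0. With 1 library per group, a difference between the lines' responses was not tested. The 6 h value was -0.35 with the deposited TPM. With a pseudocount of 5 CPM its change in tet-control at 24 h was 0.37 and no longer called.

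The control line was read for changes under doxycycline without the inducible gene, with 1 library at each time. Drug, time in culture and culture-to-culture variation cannot be told apart in it. At 6 h, 3 members (SLC7A11, TXNRD1 and OSGIN1) were called higher in tet-control, 3 of 10 against 7.47% of measured genes, and none was called lower, against 7.72%. At 24 h OSGIN1 alone was called higher, 1 of 10 against 1.6%, and none was called lower, against 1.92%. HMOX1, haem oxygenase and another NRF2 target, was also highest at 6 h in tet-control, at 247, 584 and 285 CPM, and was at 88.8, 121 and 89.4 CPM in tet-ZFP36L1. Most other targets did not share this rise. Of 25 measured genes in a list of other NRF2 targets, HMOX1 included, 2 were called higher in tet-control at 6 h, against 7.47%. In the same list 6 were called lower, against 7.72%, and the median was -0.24.

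In tet-ZFP36L1, TXNRD1 was called lower at 6 h, 1 of 10 against 15.6% of measured genes, which is near the background. SLC7A11 and OSGIN1 were called higher, 2 of 10 against 9.09%. At 24 h GCLM, SLC7A11, TXN and TXNRD1 were called lower, 4 of 10 against 17.0%, and OSGIN1 was called higher, 1 of 10 against 11.8%. NQO1 (-0.56) and NFE2L2 (-0.55) lay just short of the threshold at 24 h, and TXNRD1 at 6 h (-0.61) just past it.

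**Figure D3:**
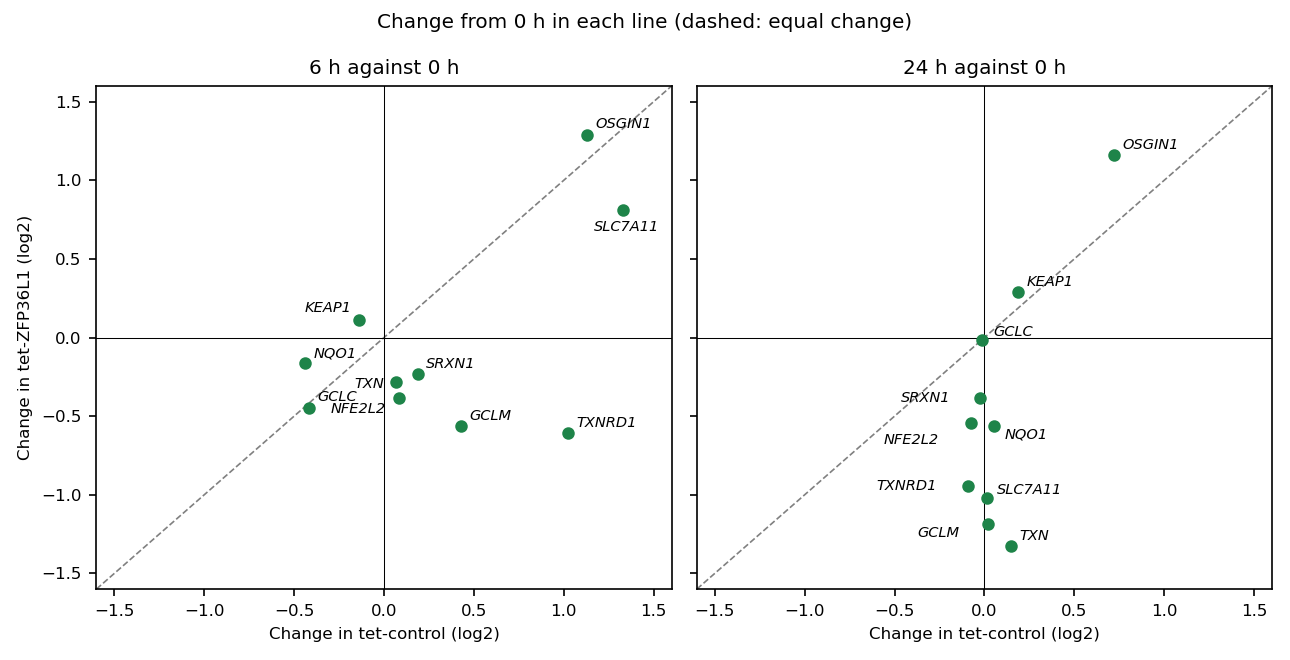
Change from 0 h (log2) in tet-control (horizontal) and tet-ZFP36L1 (vertical) at 6 h (left) and 24 h (right), with 1 point per gene and a dashed line for equal change. At 6 h the genes spread along the horizontal axis, TXNRD1 standing farthest below the line, and at 24 h all but OSGIN1 lie within 0.19 of 0 in tet-control while 7 lie between -1.33 and -0.39 in tet-ZFP36L1.

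Set side by side at the same time, the lines differed as follows. At 0 h no member was called lower in tet-ZFP36L1, against 7.98%, and OSGIN1 was called higher (0.65), 1 of 10 against 10%. At 6 h GCLM (-1.42), TXNRD1 (-2.05) and SRXN1 (-0.81) were called lower, 3 of 10 against 15.3%, and NQO1 (0.77) and OSGIN1 (0.81) were called higher, 2 of 10 against 12.4%. At 24 h GCLM (-1.63), TXN (-1.62), TXNRD1 (-1.27), SLC7A11 (-0.93) and SRXN1 (-0.74) were called lower, 5 of 10 against 20.3%, and OSGIN1 (1.08) was called higher, 1 of 10 against 18.4%. The call of SRXN1 at 24 h was lost in 3 alternative settings, at -0.56 to -0.52. The call of OSGIN1 at 0 h was lost with a pseudocount of 5 CPM (0.33) and with centring within expression deciles (0.57), and its call at 6 h was lost with a pseudocount of 5 CPM (0.57). All 3 tet-ZFP36L1 libraries lay below all 3 tet-control libraries for GCLM, TXN, TXNRD1 and SRXN1, 4 of 10 against 17.5%, and above them for none, against 16.3%. Of these 4, GCLM and TXNRD1 already stood 0.42 and 0.41 below tet-control at 0 h (-0.42 and -0.41), SRXN1 -0.39 and TXN -0.15.

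Other genes of the pathway were read from lists chosen by function, and their counts in the induction difference are set beside the same shares of all measured genes. Among 22 NRF2 partners and regulators, all measured, 6 were called lower at 6 h, against 14.3%, and 3 at 24 h, against 17.4%, the latter near the background. None was called higher, against 7.02% at 6 h and 13.9% at 24 h. MAFG, a small MAF partner of NRF2, came to 53.0, 75.4 and 53.2 CPM in tet-control and 59.3, 28.6 and 25.5 CPM in tet-ZFP36L1, with induction differences of -1.55 and -1.21. The other small MAF genes, MAFF (-0.84 and -0.43) and MAFK (-0.68 and -0.38), were called lower at 6 h and not at 24 h, though MAFK was at -0.64 at 24 h with protein-coding transcripts alone. BACH1, a repressor that competes for the same elements, had -0.12 and 0.07, but 0.43 and 0.60 with the deposited TPM, the latter past 1.5-fold. It stood higher in tet-ZFP36L1 than in tet-control in every library, at 57.2 to 59.0 CPM against 23.9 to 28.1 CPM. BACH2 had -1.40 (-2.05 to -0.74) at 6 h, with 48 to 135 counts in the tet-ZFP36L1 libraries and 2 to 3 in the tet-control libraries. NFE2L1, a relative of NRF2, had -0.37 and -0.82 (the latter -0.57 with centring), CUL3 had 0.11 and -0.06, and SQSTM1, an autophagy receptor that binds KEAP1, had 0.42 (0.80 with protein-coding transcripts alone) and 0.11.

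Among 32 other NRF2 target genes, 25 were measured. Of these, 4 were called lower at 6 h, near the 14.3% of all measured genes, and 0 higher, against 7.02%. At 24 h 7 were lower, against 17.4%, and 3 higher, near the 13.9% of all measured genes. The medians were 0.19 and -0.25. HMOX1 was among those called lower at 6 h (-0.79, interval -0.89 to -0.69), after a tet-control level that was higher at 6 h, and had -0.19 at 24 h. ME1, an NADPH-forming malic enzyme, measured 17.1, 7.83 and 6.64 CPM in tet-ZFP36L1 and 24.9, 21.2 and 26.6 CPM in tet-control, with -0.85 and -1.39. ABCC1, a glutathione-conjugate exporter, had -1.14 at 6 h, and TRIM16 had 0.99 at 24 h, an uncertain value since 51.7% of its 31-base words also occur in other genes, mainly TRIM16L. Several classical targets, among them AKR1B10 and ALDH3A1, were at or near 0 in both lines.

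Of the glutathione enzymes and transporters, 23 of 27 were measured, with 1 lower (against 14.3%) and 1 higher (against 7.02%) at 6 h. At 24 h 4 were lower, no more than the 17.4% of all measured genes, and 1 was higher, against 13.9%. GSR, which regenerates reduced glutathione, had -0.98 (-1.29 to -0.66) at 24 h, CHAC2 had -1.09 at 24 h, and at 6 h GLRX had -1.01 and GPX8 0.60. With protein-coding transcripts alone GSR was at -0.56 and GPX8 at 0.39, both short of 1.5-fold. In the thioredoxin and peroxiredoxin list, 16 of 18 were measured and most values lay above 0, with medians of 0.43 and 0.16. At each time 1 was lower, against 14.3% and 17.4%, and 4 were higher, against 7.02% and 13.9%. The lower gene was PRDX3, the mitochondrial peroxiredoxin, at 229, 102 and 84.4 CPM in tet-ZFP36L1 and 264, 213 and 255 CPM in tet-control, with -0.85 and -1.38. MSRB1 had 1.12 at 6 h, but 0.58 and no call with the deposited TPM. TXNRD3 had 1.42 at 24 h (0.78 with a pseudocount of 5 CPM), and TXNIP was below the filter, at no more than 0.248 CPM in any library. TXN and TXNRD1 had induction differences below 0 at both times, while the medians of this list lay above 0.

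Among superoxide and peroxide enzymes, 4 of 12 matched genes were measured. None was lower at either time (against 14.3% and 17.4%) or higher at 6 h (against 7.02%), and 1 was higher at 24 h (against 13.9%). This was CCS, the copper chaperone of SOD1, with 0.46 and 0.62, a call lost with centring (0.55) and with a pseudocount of 5 CPM (0.52). SOD1 had -0.41 at 24 h and CYBA had -0.11 at 6 h. ATF4, a stress-response factor, also drives SLC7A11, and of its amino acid response genes 16 of 17 were measured. At 6 h 9 of them were called higher in tet-control, against 7.47%, and 6 in tet-ZFP36L1, against 9.09%. At 24 h 0 were higher in tet-control, against 1.6%, and 2 in tet-ZFP36L1, against 11.8%. On the lower side, 0 were called in tet-control at 6 h, against 7.72%, and 1 in tet-ZFP36L1, against 15.6%. At 24 h these were 0, against 1.92%, and 6, against 17.0%. A part of ATF4 in the SLC7A11 values was not tested. In the induction difference 5 were lower at 6 h, against 14.3%, and 7 at 24 h, against 17.4%, while 1 and 2 were higher, against 7.02% and 13.9%. Among them were CEBPB at -1.44 at 6 h, MTHFD2 at -0.94 (-0.57 with protein-coding transcripts alone) and -1.42, and SLC7A5, another amino acid transporter, at -1.76 (-1.86 to -1.66) at 24 h. TXNRD1 is a selenoprotein, and 6 genes were listed as selenoprotein synthesis factors. Of these, 1 was lower at each time, near the 14.3% and 17.4% of all measured genes. At 6 h 2 were higher, against 7.02%, and at 24 h 1, against 13.9%. SEPHS2 had 0.99 and 1.18, SEPSECS -0.73 at 6 h and SEPHS1 -0.73 at 24 h, and the latter 2 were short of 1.5-fold with the deposited TPM (-0.53 and -0.57).

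**Figure D4:**
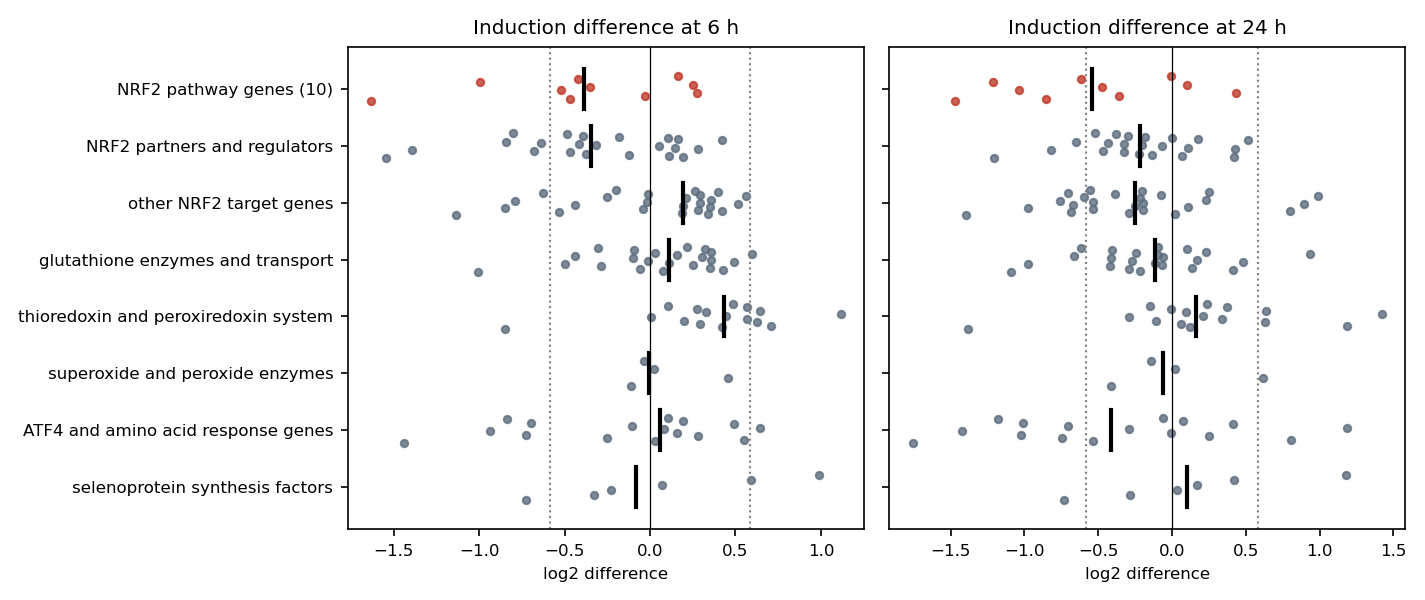
Induction difference (log2) at 6 h (left) and 24 h (right) for the 10 genes (red) and the measured genes of each list (grey-blue), with 1 dot per gene (spread vertically for visibility), a black bar at each median and dotted lines at 1.5-fold. The medians of the 10 genes (-0.39 and -0.54) lie left of 0, and that of the thioredoxin and peroxiredoxin list (0.43 and 0.16) lies right of it.

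Among the marker lists, the largest induction differences of measured genes were -0.41 (PPARG) and 0.25 (KRT8) at 6 h and 0.50 (KRT7) and 0.41 (KRT8) at 24 h for the epithelial list. For the mesenchymal list they were -0.73 (ZEB2) and -0.64 (FN1) at 6 h and -1.94 (FN1) and -1.05 (VIM) at 24 h, so FN1 and VIM were lower in the same library in which TXN, GCLM and SLC7A11 were lowest. With the deposited TPM the 6 h values of ZEB2 and FN1 were short of 1.5-fold (-0.58 and -0.53), while KRT7 at 24 h was past it (0.67). The other markers measured were COL1A1 (1.31 and 0.66, but 0.14 and -0.039 with the deposited TPM) and CD68 (-1.79 and -0.43), which is uncertain because 77.3% of its 31-base words occur in other genes. Their part in the members' values was not tested.

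Transcript shares were read from the estimated counts. TXN-202 held at least 99.6% of TXN and the main transcript of SLC7A11 at least 97.0% in every library, and SRXN1 has 1 listed transcript. For TXN and SLC7A11 the level of the gene is mainly the level of 1 mRNA. For SRXN1 this is uncertain because of the words it shares with AL121758.1. TXNRD1-203 held 55.1% to 63.1% and TXNRD1-202 18.4% to 27.6% of TXNRD1. The highest share of TXNRD1-202 and the lowest of TXNRD1-203 were in tet-control at 6 h, the library with the highest TXNRD1 level. The main transcript of GCLM held 85.7% to 90.8%. NFE2L2-206 held 46.7% to 57.4% of NFE2L2, while NFE2L2-211 held 19.1% at 24 h in tet-ZFP36L1 against 6.15% to 12.2% in the other 5 libraries. NQO1 was divided mainly among NQO1-206, NQO1-203 and NQO1-202, each with 25.6% to 37.2% of its counts. Division among transcripts of 1 gene is an estimate whose error is not in the deposited values.

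For TXN, the 5 protein-coding genes with the most similar profile over the 6 libraries were PRR11, CCT8, KNSTRN, CIP2A and MICA, at Euclidean distances of 0.19 to 0.25 in log2 values centred on each gene's mean. CCT8, a chaperonin subunit, was at 501, 517 and 521 CPM in tet-control and 467, 345 and 204 CPM in tet-ZFP36L1. PRR11, the nearest, came to 127, 148 and 141 CPM in tet-control and 126, 102 and 52.6 CPM in tet-ZFP36L1. All 5 had their lowest level in tet-ZFP36L1 at 24 h, as TXN did. They were picked for this likeness over the same libraries, so the shared low point follows from the choice.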

How the data were processed

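Total RNA from 6 J82 cultures was read on a BGISEQ-500 instrument after column purification, per the labels' protocols. Quantification with kallisto, the build hg19 and DESeq2 are named without versions, per the submitters' processing notes. The deposited tables give estimated counts, which need not be whole, and TPM for 196354 transcripts. Strand and annotation release are not given in the sources used here. Samples were grouped from their titles.

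Transcripts were matched by identifier to GENCODE 29 (GRCh38), 181857 of them, which gave 52992 genes. Unmatched transcripts held 5.12% to 5.47% of estimated counts and were left out. Positions are those of GRCh38, and none was converted from the submitters' build. Summing the estimated counts over a gene's transcripts and rounding them left 19605308 to 20245037 per library. Scaling used TMM factors (edgeR 4.0.16, R 4.3.3) calculated on genes averaging 10 or more counts, and changes were taken on log2(CPM + 0.5), a scale on which those of low genes come out too small. The deposited TPM, scaled by effective length (length minus 179), served for comparing genes. Intervals are 95% delta-method intervals of the counts. They cover counting error alone, and without molecular identifiers reads are not separate molecules.

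No replicate exists, so no model or count test was fitted. The scripts were tested on simulated data with known changes. The 3′ UTR search used, per gene, the protein-coding transcript of highest mean TPM among those whose stop codon is annotated. Named genes were, from each list, the 2 measured genes with the largest absolute induction difference at each time, a fixed set of NRF2 partners and targets, and the 5 profiles nearest to TXN. The members and lists were chosen with earlier results of these data known. Other settings tried were upper-quartile factors, size factors of DESeq2 1.42.0, CPM by library total, the deposited TPM, other pseudocounts and filters, 2-fold calls, centring within expression deciles and protein-coding transcripts alone. Of 13 superoxide and peroxide genes and 10 markers of other cell types, 12 and 9 had a unique symbol match.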

Additional observations from a re-analysis of the deposited data

Results flagged for a closer look

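TXNRD1 moved in opposite directions in the lines at 6 h, with both changes past 1.5-fold: 1.02 in tet-control and -0.61 in tet-ZFP36L1, a difference of -1.63. The tet-ZFP36L1 change was short of 1.5-fold, at -0.57, with upper-quartile factors or protein-coding transcripts alone. With 1 library per group the difference of -1.63 was not tested.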

How the results depend on the processing

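Of the 90 member values (10 genes in 9 contrasts), 31 were past 1.5-fold, and 28 to 31 of these stayed past it, with the same sign, under each of 8 alternatives. Values near 0 took the other sign in up to 11 of the 90 (plain CPM). At 24 h the 5 members called lower became 3 with the deposited TPM (GCLM, TXN and TXNRD1) and 3 with a 2-fold threshold (GCLM, SLC7A11 and TXN), and the 2 called lower at 6 h became 1 with a 2-fold threshold (TXNRD1). The median of the members at 24 h lay at -0.55 to -0.33 in all settings. Plain CPM called 1 member higher at 24 h (OSGIN1). NQO1 at 24 h fell short of 1.5-fold with plain CPM (-0.44), upper-quartile factors (-0.53), the deposited TPM (-0.44), centring (-0.37) and protein-coding transcripts alone (-0.57). The cause was not tested. COL1A1, a marker, was reversed at 24 h with the deposited TPM (-0.039 against 0.66). Plain CPM moved the median of all genes at 24 h from -0.02 to 0.15, and calls were then 12.1% lower and 20.7% higher, against 17.4% and 13.9%, and 13.4% and 18.9% with the deposited TPM. OSGIN1, at 64 to 270 counts, had the widest intervals. No paired analysis was possible because each group has 1 library and the labels give no replicate numbers. With no replicates, leaving out a library was not possible.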
